A study of Homo sapiens with 6 samples.

Results

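CD200 and 8 other genes whose products sit on, or are released from, the cell surface and meet receptors on immune cells were followed through an RNA-seq experiment on knockdown of CIRBP, a cold-inducible RNA-binding protein. The genes were CD200, CD274, PDCD1LG2, CD276, CD47, NECTIN2, PVR, LGALS9 and TNFRSF14, found by their symbols, and all 9 were among the 58884 genes listed. CD200 was chosen because its RNA was already known to be lower in the knockdown libraries, so that its difference between the groups is a description here and carries no test. The other 8 were added as ligands of the same general kind.

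The cells were human immortalized ventricular cardiomyocytes. The labels name the line T0519, whereas the study's text names AC16, a separate line of the same kind, for this experiment, and which of them was sequenced was not settled here. All cells grew in Prigrow I medium with serum and antibiotics, and the labels name no drug. The control group received negative control siRNA (NC, 3 libraries, NC_1 to NC_3) and the knockdown group received siRNA against CIRBP (SiCIRBP, 3 libraries, SiCIRBP_1 to SiCIRBP_3). The labels do not say whether the libraries came from separate cultures, so p-values measure only the spread between these libraries, which may be technical. The siRNA sequences are not given in the sources used here.

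Ligands of this kind act at the contact between a tissue cell and an immune cell. CD200 and CD47 are seen by myeloid cells, the PD-1 ligands and the nectin family mainly by T cells and natural killer cells, and most of them damp the cell that sees them. Interferons are well known inducers of CD274 and of LGALS9, and RNA of a ligand does not by itself show how much protein reaches the surface.

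The libraries held between 25726259 and 29919566 estimated reads. Levels are given as CPM, read counts scaled to a common library size with TMM factors, and levels of different genes are set side by side only in TPM, which also divides by transcript length. CIRBP stood at 86.4, 85.8 and 91.0 CPM in NC_1, NC_2 and NC_3 and at 54.8, 24.3 and 46.3 CPM in SiCIRBP_1, SiCIRBP_2 and SiCIRBP_3. The study's own test left out NC_1 and SiCIRBP_2. SiCIRBP_2 had the lowest CIRBP and stood apart from the other libraries, with Pearson correlations of at most 0.975 to any of them over 15217 genes on the log2(CPM + 1) scale. NC_1 stood less far apart, with correlations of 0.994 to NC_2 and 0.993 to NC_3, but NC_2 and NC_3 were closer to each other, at 0.997. The correlations of NC_1 to SiCIRBP_1 and SiCIRBP_3 were 0.991 and 0.990, where NC_2 and NC_3 had 0.981 to 0.985. Leaving out NC_1 thus removes the control most like the knockdown libraries, which the 4-library p-values do not account for. The study's comparison, NC_2 and NC_3 with SiCIRBP_1 and SiCIRBP_3, is given first. The comparison of all 6 libraries is given beside it, and both share those 4 libraries. Of 13 cardiomyocyte markers, 9 were below 1 TPM in every library and MYH6, MYL2 and RYR2 were at 0 throughout. The rest were GATA4 at 22.6 to 63.0 TPM, ACTN2 at 7.86 to 15.9, NKX2-5 at 3.39 to 9.69 and TNNI3 at 0.11 to 2.45. The label of the cells thus rests on few of its defining genes. Of 9 leukocyte markers, 7 were below 1 TPM in every library, and CD3E and MS4A1 were at 0. The others were CD14 and CD68, the latter at 6.89 to 12.0 TPM. Below 1 TPM in every library were 2 of 7 fibroblast, 3 of 5 endothelial and 1 of 4 neuronal markers. The fibroblast marker COL1A1 stood at 320 to 1158 TPM.

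A stretch of DNA before a RefSeq start of each of 3 genes is shown. These genes differ in how they tracked the interferon-stimulated genes of the same libraries. Each is the 250 bases upstream of the RefSeq start on GRCh38.p14, on the plus strand and read 5′ to 3′, with capitals at matches to a pair of GAAA separated by any 2 bases (a core of interferon-stimulated response elements) or TTCNNNGAA (a core of STAT sites). TGACGTCA and TGANTCA, cores of CREB and AP-1 sites, were searched as well. All 4 were searched on both strands and chosen after the values had been seen. RefSeq entries matched 8 of the 9 genes, PDCD1LG2 being the other.
CD200, chr3:112332906-112333155: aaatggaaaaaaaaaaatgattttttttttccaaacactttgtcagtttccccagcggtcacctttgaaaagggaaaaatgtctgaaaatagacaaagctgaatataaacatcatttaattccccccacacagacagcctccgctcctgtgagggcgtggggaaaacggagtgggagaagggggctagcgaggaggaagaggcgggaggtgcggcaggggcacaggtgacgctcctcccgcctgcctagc
CD274, chr9:5450292-5450541: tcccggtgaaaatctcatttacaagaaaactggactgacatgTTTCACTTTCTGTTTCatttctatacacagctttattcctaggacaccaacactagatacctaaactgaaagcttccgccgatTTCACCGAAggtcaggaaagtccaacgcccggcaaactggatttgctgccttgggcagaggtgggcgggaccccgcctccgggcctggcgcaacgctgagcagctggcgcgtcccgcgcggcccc
LGALS9, chr17:27630938-27631187: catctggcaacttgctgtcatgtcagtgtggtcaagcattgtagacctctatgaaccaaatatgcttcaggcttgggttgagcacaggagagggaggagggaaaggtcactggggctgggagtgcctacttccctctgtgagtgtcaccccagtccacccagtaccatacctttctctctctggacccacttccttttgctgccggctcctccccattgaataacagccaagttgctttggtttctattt
The first run of capitals in CD274 is a pair of overlapping matches to the GAAA pair on the minus strand. They start at -208 and -202 from the RefSeq start. The second run is TTCNNNGAA at -125, which reads the same on both strands. The CD200 and LGALS9 windows held no match to any of the 4, nor did those of the other genes with a RefSeq entry. Both the CD200 and the LGALS9 window lie inside the gene as GENCODE places it, starting at 112332347 and 27629798. Among 35116 windows of the same length, the GAAA pair was in 3.021%, TTCNNNGAA in 6.567%, TGACGTCA in 1.646% and TGANTCA in 6.573%. A match is a run of letters and not a measured site, and nothing about a factor follows from a window with no match.

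CD200, a membrane glycoprotein that binds the myeloid receptor CD200R1, stood at 5.19, 13.2 and 14.7 CPM in NC_1, NC_2 and NC_3 and at 1.99, 2.33 and 2.07 CPM in SiCIRBP_1, SiCIRBP_2 and SiCIRBP_3. The 3 knockdown libraries lay close together and all below the 3 controls, and NC_1 lay below the other controls. The fitted log2 difference of SiCIRBP from NC was -2.78 ± 0.18 (SE) over the 4 libraries and -2.37 ± 0.38 over all 6, given without a test because this contrast chose the gene. The counts behind the levels were 148, 340 and 447 in the NC libraries and 58, 60 and 58 in the SiCIRBP libraries. The exact 95% Poisson interval of NC_1, from 4.38 to 6.09 CPM, did not overlap that of NC_2, from 11.8 to 14.7. Such counting intervals cover counting error only. Of the pair that the study left out, SiCIRBP_2 was lower than NC_1 by 1.15 on the log2 scale. This too is given without a test, because the gene was chosen for a fall between these groups. CD200 covers chr3:112332347-112362812 on the plus strand of GRCh38.

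Among the genes whose level rose and fell most like that of CD200 over the 6 libraries were VAX2, a homeobox factor, with a Pearson correlation of 0.998, and CHD2, a chromatin remodeller, with 0.995. The others of the nearest 5 were NOA1, a mitochondrial GTPase, FAM160B1 and SIK1B, a near-identical copy of the kinase gene SIK1 whose reads may have been shared with it. CHD2 stood at 136, 184 and 195 CPM in the NC libraries and at 105, 101 and 99.1 in the SiCIRBP libraries, so that it had the same order of groups as CD200 and the same low NC_1 with a smaller fold. These are the highest of 15217 correlations over 6 shared libraries and are given as descriptions.

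**Figure D1:**
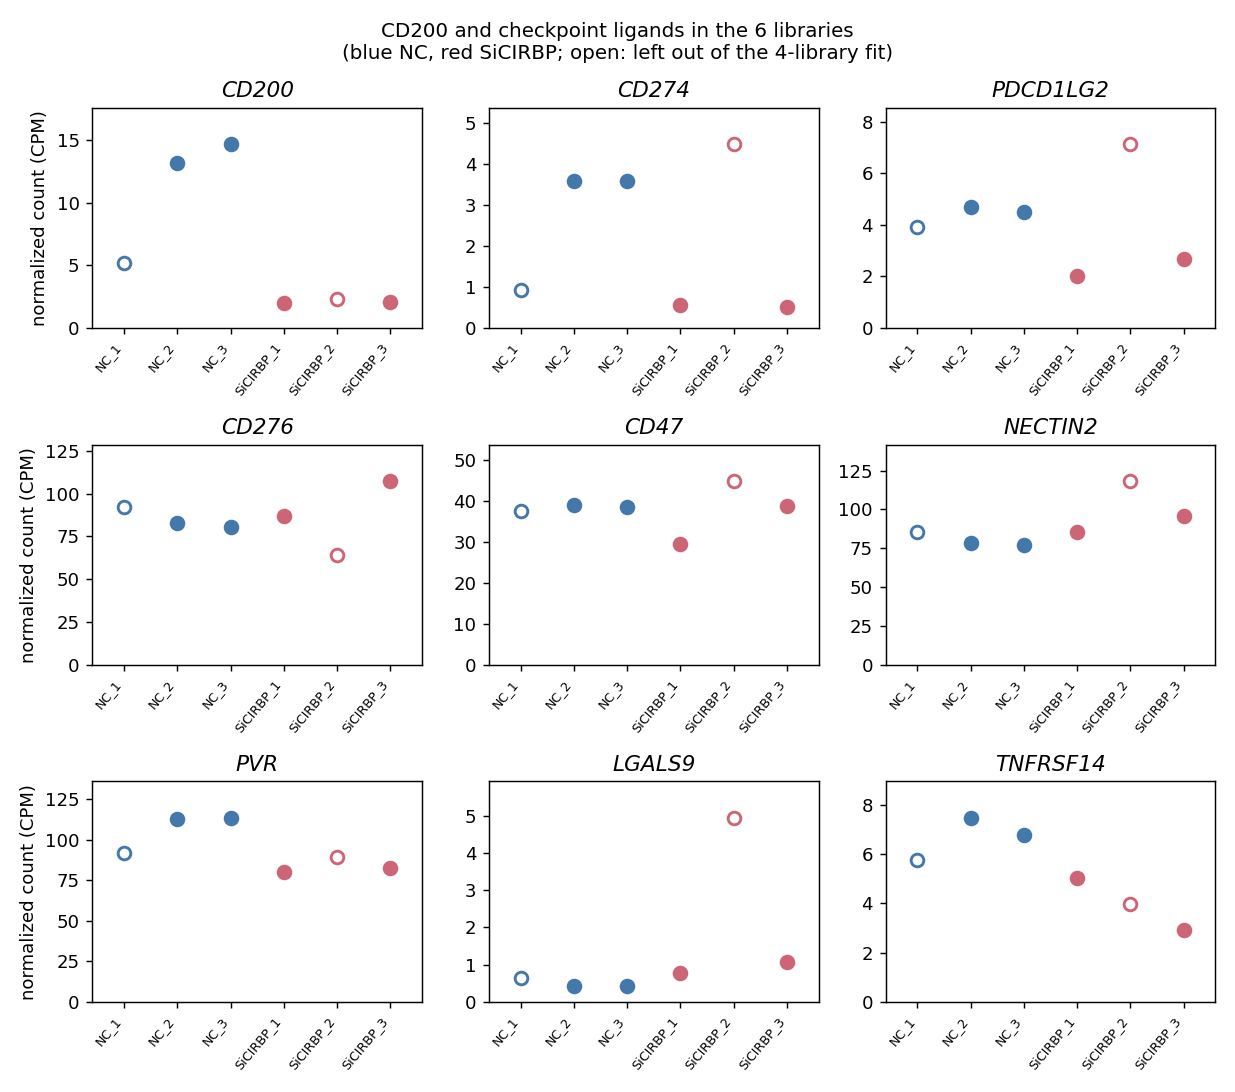
Level of the 9 genes in each of the 6 libraries, in CPM on a linear axis from 0 with its own scale for each gene. Each point is 1 library, blue for NC and red for SiCIRBP, and open for NC_1 and SiCIRBP_2. CD200 was between 1.99 and 2.33 CPM in all 3 SiCIRBP libraries, whereas CD274, PDCD1LG2, CD47, NECTIN2 and LGALS9 were each highest in SiCIRBP_2.

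Of the 8 genes other than CD200, 3 were lower in SiCIRBP over the 4 libraries and 0 were higher by edgeR's quasi-likelihood test at a Benjamini-Hochberg adjusted p under 0.05. At an unadjusted p under 0.05, 4 were lower and 1 higher, where 36.6% of all genes passed in either direction. In the same comparison 9.76% of 15421 genes tested were lower and 9.62% higher, and the median log2 difference was -0.33 over the 8 genes and -0.00 over all genes. DESeq2 called 2 of the 7 it gave an adjusted p for, both lower, where it called 11.8% of all genes lower and 10.6% higher. Over all 6 libraries edgeR called 0 of the 8 and 0 of 15217 genes, with 1 of the 8 higher and 2 lower at an unadjusted p under 0.05, which 23.7% of all genes passed. DESeq2 over 6 libraries called 1, LGALS9, higher, where it called 4.6% of all genes higher and 5.17% lower.

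CD274 (PD-L1), a ligand of the T cell receptor PD-1, stood at 0.91, 3.57 and 3.58 CPM in NC_1, NC_2 and NC_3 and at 0.55, 4.47 and 0.50 CPM in SiCIRBP_1, SiCIRBP_2 and SiCIRBP_3. The groups overlapped, since SiCIRBP_2 was the highest of all 6 libraries and NC_1 lay nearer to SiCIRBP_1 and SiCIRBP_3 than to the other controls. Over the 4 libraries it was lower by 2.76 ± 0.29 (log2 and SE; adjusted p = 0.00544, edgeR), a fall from 92 and 109 counts to 16 and 14. Over all 6 libraries the log2 difference was -0.56 ± 0.86 (adjusted p = 0.713, edgeR; exact permutation p = 0.4, two-sided), and with 1 library left out it ran from -2.35 without SiCIRBP_2 (adjusted p = 0.0529, edgeR) to -0.10 without SiCIRBP_3. Between the 2 libraries the study left out the difference had the other sign, with SiCIRBP_2 above NC_1 by 2.30 on the log2 scale and a counting interval from 1.67 to 2.97. With NC_3 left out of the 4 libraries the adjusted p became 0.0583 (edgeR).

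PDCD1LG2 (PD-L2), the other PD-1 ligand, lies on the same arm of chromosome 9 at 5510570-5571254, next to CD274 at 5450503-5470566. It stood at 3.93, 4.70 and 4.49 CPM in NC_1, NC_2 and NC_3 and at 2.02, 7.12 and 2.67 CPM in SiCIRBP_1, SiCIRBP_2 and SiCIRBP_3. SiCIRBP_1 and SiCIRBP_3 lay below all controls and SiCIRBP_2 above them, the same order of the SiCIRBP libraries against NC_2 and NC_3 as for CD274. Over the 4 libraries PDCD1LG2 was lower by 0.97 ± 0.24 (adjusted p = 0.0363, edgeR), with an adjusted p of 0.0532 by DESeq2, 0.211 by edgeR without NC_2 and 0.226 without NC_3. Over all 6 libraries the log2 difference was -0.16 (adjusted p = 0.846, edgeR), and without SiCIRBP_2 it was -0.90 (adjusted p = 0.0516, edgeR).

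Interferon-stimulated genes differed between the SiCIRBP libraries in the same direction as these ligands only in part. The median of 30 such genes lay 3.51 above the NC mean in SiCIRBP_2 on the log2 scale, with 30 of 30 higher. It lay 0.73 above in SiCIRBP_3, with 28 of 30 higher, and at -0.93 in SiCIRBP_1, with 1 of 30 higher, whereas CD274 and PDCD1LG2 were low in both of these libraries. MX1, an antiviral GTPase, stood at 26.5, 25.5 and 24.1 CPM in the NC libraries and at 5.27, 680 and 69.1 CPM in SiCIRBP_1, SiCIRBP_2 and SiCIRBP_3. In NC_1 the median differed from the NC mean by -0.02, so that the low CD200 and CD274 of NC_1 came with interferon-stimulated genes at the level of the other controls. The part of the interferon-stimulated genes in the ligand differences was not tested.

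**Figure D2:**
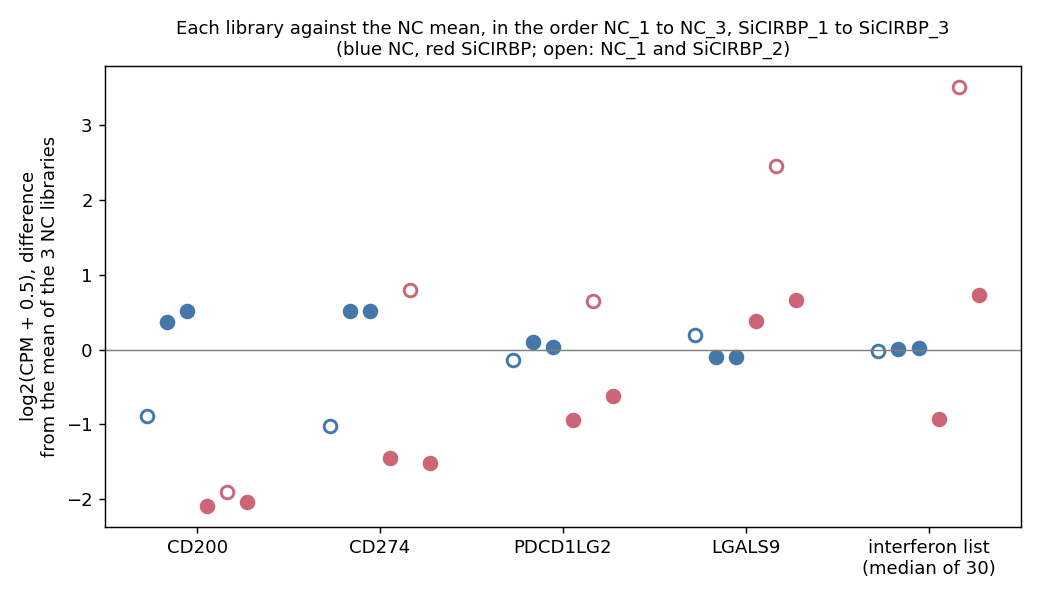
Difference of each library from the mean of the 3 NC libraries, on the log2(CPM + 0.5) scale, for 4 ligand genes and for the median of 30 interferon-stimulated genes, with 1 point per library (blue NC, red SiCIRBP, open NC_1 and SiCIRBP_2). SiCIRBP_2 is the highest library for CD274, PDCD1LG2, LGALS9 and the interferon median, at 3.51 for the last, while CD200 is lowest in the 3 SiCIRBP libraries. Among the genes not drawn, CD47 and NECTIN2 were also highest in SiCIRBP_2.

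LGALS9 encodes galectin-9, a secreted and surface-bound lectin that binds the T cell receptor HAVCR2 (TIM-3). It stood at 0.63, 0.43 and 0.43 CPM in NC_1, NC_2 and NC_3 and at 0.79, 4.94 and 1.07 CPM in SiCIRBP_1, SiCIRBP_2 and SiCIRBP_3. All SiCIRBP libraries were above all NC libraries, SiCIRBP_2 by far the most and SiCIRBP_1 by little. The counts were 18, 11 and 13 against 23, 127 and 30, and the counting interval of SiCIRBP_1, from 0.50 to 1.18 CPM, overlapped that of NC_1, from 0.37 to 1.00. The log2 difference was 1.11 ± 0.41 over the 4 libraries (adjusted p = 0.10, edgeR) and 2.18 ± 0.72 over all 6 (adjusted p = 0.142, edgeR; exact permutation p = 0.1, two-sided, the smallest that 3 against 3 libraries allow). DESeq2 over 6 libraries gave an adjusted p of 0.0230 and edgeR without the filter on low counts 0.0337. Without SiCIRBP_2 the 6-library difference became 0.90 (adjusted p = 0.173, edgeR). Of the 31-base words of its annotated transcripts, 16.2% also occur in LGALS9C and 8.78% in LGALS9B, copies of the same gene that had at most 5 and 0 counts in any library, so that some reads could have been divided between them.

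CD276 (B7-H3), a B7 family member found on many tissue cells, and CD47, the ligand of the phagocyte receptor SIRPA, were among the better measured of the 9, with at least 1645 and 866 counts in any library. CD276 stood at 92.4, 82.6 and 80.5 CPM in NC_1, NC_2 and NC_3 and at 87.2, 64.0 and 107 CPM in SiCIRBP_1, SiCIRBP_2 and SiCIRBP_3, and the SiCIRBP libraries lay on both sides of the controls. CD47 stood at 37.6, 39.1 and 38.7 CPM in the NC libraries and at 29.7, 44.9 and 38.8 CPM in SiCIRBP_1, SiCIRBP_2 and SiCIRBP_3, again on both sides. Neither passed the test over the 4 libraries, with log2 differences of 0.25 ± 0.11 for CD276 (adjusted p = 0.160, edgeR) and -0.19 ± 0.14 for CD47 (adjusted p = 0.387, edgeR). Over 6 libraries they were 0.02 and -0.03. With SiCIRBP_1 left out of the 4 libraries CD276 was higher by 0.39 (adjusted p = 1.92e-05, edgeR), and with SiCIRBP_3 left out CD47 was lower by 0.40 (adjusted p = 0.00016, edgeR). These fits with a lone SiCIRBP library called 44.3% and 40.2% of all genes, against 19.4% with all 4 libraries.

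NECTIN2 and PVR are adhesion molecules of the nectin family that bind the inhibitory receptor TIGIT and the activating receptor CD226, and their genes lie on chromosome 19 at 44846175-44889228 and 44643798-44663583. PVR stood at 91.8, 112 and 113 CPM in NC_1, NC_2 and NC_3 and at 80.1, 89.4 and 82.4 CPM in SiCIRBP_1, SiCIRBP_2 and SiCIRBP_3. The SiCIRBP libraries were all below the NC libraries, with SiCIRBP_2 just under NC_1. Over the 4 libraries PVR was lower by 0.47 ± 0.08 (adjusted p = 0.0140, edgeR), a fall that was no longer past the threshold without NC_2 (adjusted p = 0.151, edgeR) or without NC_3 (0.194), although its size hardly moved. Over 6 libraries the log2 difference was -0.33 (adjusted p = 0.171, edgeR; exact permutation p = 0.1). NECTIN2 stood at 85.5, 78.4 and 77.1 CPM in the NC libraries and at 85.3, 118 and 96.0 CPM in SiCIRBP_1, SiCIRBP_2 and SiCIRBP_3. SiCIRBP_1 lay level with NC_1 and the other SiCIRBP libraries above all controls. The log2 difference of NECTIN2 over the 4 libraries was 0.22 ± 0.09 (adjusted p = 0.137, edgeR). It was 0.30 without SiCIRBP_1 and 0.13 without SiCIRBP_3, fits that leave a lone SiCIRBP library.

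TNFRSF14 (HVEM), a receptor of the tumour necrosis factor family that is also the ligand of BTLA, stood at 5.75, 7.46 and 6.79 CPM in NC_1, NC_2 and NC_3 and at 5.03, 3.97 and 2.92 CPM in SiCIRBP_1, SiCIRBP_2 and SiCIRBP_3. The SiCIRBP libraries were all below the NC libraries, SiCIRBP_1 closest to them. The log2 difference of -0.84 ± 0.27 over the 4 libraries did not pass the test (adjusted p = 0.0753, edgeR), nor did -0.74 over 6 (adjusted p = 0.142, edgeR; exact permutation p = 0.1). It passed over the 4 libraries without the filter on low counts (adjusted p = 0.00139, edgeR) but not by DESeq2 (adjusted p = 0.0610). With a library left out of the 4, the difference was -0.77 without NC_2 and -0.91 without NC_3. It was -0.50 without SiCIRBP_3 and -1.29 without SiCIRBP_1. Each of these fits leaves a lone library in a group. An antisense gene overlaps TNFRSF14, and whether counting used the strand is not given in the sources used here.

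**Figure D3:**
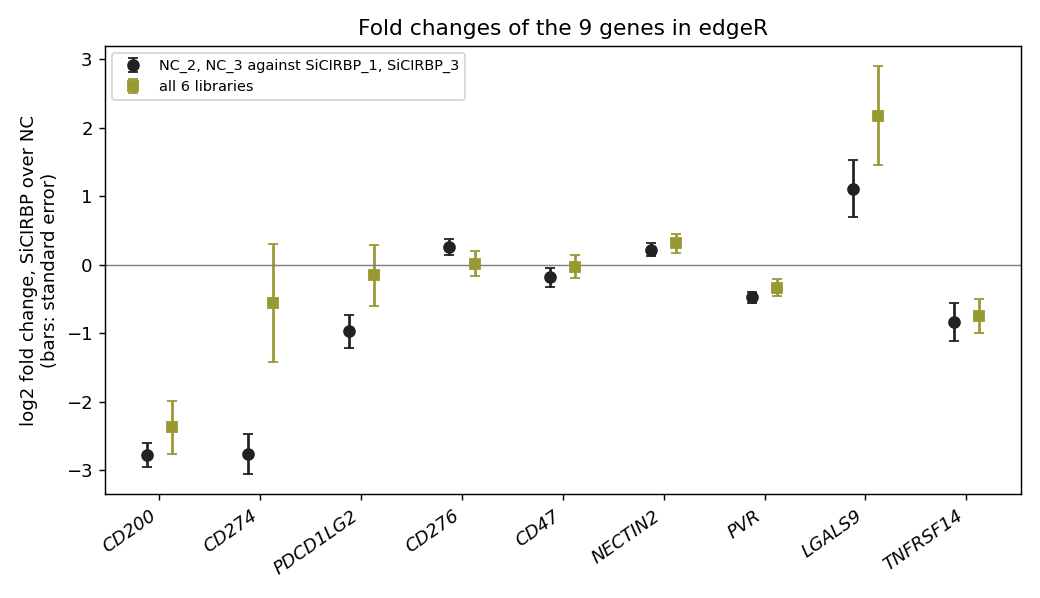
Log2 difference of SiCIRBP from NC for the 9 genes over the 4 libraries the study used and over all 6, with bars of 1 standard error. CD274 moved from -2.76 to -0.56 between the 2 fits, LGALS9 from 1.11 to 2.18 and PDCD1LG2 from -0.97 to -0.16. CD200 moved from -2.78 to -2.37, and the remaining genes moved less.

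Over all 6 libraries, 2 genes besides CD200 had every SiCIRBP library below every NC library, PVR and TNFRSF14, and 1, LGALS9, had every SiCIRBP library above. Of the 15217 genes tested, 16.6% had the first pattern and 16.2% the second.

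Per length, the controls held most RNA of CD276, at 54.9 ± 3.64 TPM (SD, n = 3), and of NECTIN2, at 54.5 ± 3.05 TPM, which did not differ beyond their spread. PVR followed at 37.8 ± 3.79 TPM and CD47 at 23.2 ± 1.93 TPM. CD200 at 8.65 ± 3.81 TPM and TNFRSF14 at 5.38 ± 0.75 TPM did not differ beyond the spread of CD200, and PDCD1LG2 stood at 2.71 ± 0.27, CD274 at 1.88 ± 1.42 and LGALS9 at 0.63 ± 0.40 TPM. In a culture, fewer cells that make an RNA and less of it in each cell cannot be told apart.

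The ratio of a gene's estimated count to its TPM follows the transcript length that the counting assigned to it, and this measure played no part in choosing the genes. For CD274 the implied length was 3626, 2354 and 1715 bases in NC_1, NC_2 and NC_3 and 919, 1700 and 3026 bases in SiCIRBP_1, SiCIRBP_2 and SiCIRBP_3. It spread over nearly the range of the annotated CD274 transcripts, 442 to 3644 bases, in no order of groups, and the TPM of CD274 carries that spread while its CPM does not. In TPM, SiCIRBP_1 stood at 1.04 and NC_1 at 0.35, the reverse of their order in CPM. For CD200 it stayed between 1826 and 2096 bases, and its TPM of 4.25, 10.6 and 11.1 in the NC libraries and 1.47, 1.46 and 1.43 in the SiCIRBP libraries kept the order of its CPM between the groups. For PDCD1LG2, with a single annotated transcript of 2365 bases, the implied length stayed between 2301 and 2443 bases. CD47 had 2306, 2620 and 2294 bases in the NC libraries and 2283, 1961 and 2131 bases in the SiCIRBP libraries, without overlap. The nearest of these, NC_3 and SiCIRBP_1, were closer than the error of the measure. On genes with 1 annotated transcript the median error was 3.39% in NC_3 and 0.60% in SiCIRBP_1. How many of all genes showed no overlap was not counted. PVR had 3799, 3893 and 3921 bases in the NC libraries and 3639, 3607 and 3507 bases in the SiCIRBP libraries, also without overlap. These exceed its longest transcript in GENCODE 29, 3325 bases, so the annotation that the authors used may have been another release. By limma over the 4 libraries, 0 of 14091 genes differed in implied length at an adjusted p under 0.05 (799 longer in SiCIRBP and 826 shorter at an unadjusted p under 0.05), and PVR had a log2 difference of -0.17 with an adjusted p of 0.290.

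Of 35 other checkpoint ligands, 24 had enough counts to be tested, and over the 4 libraries 4 were higher in SiCIRBP and 4 lower, with a median log2 difference of 0.24. Of all 15421 genes 9.62% were higher and 9.76% lower, with a median of -0.00. NECTIN1, a nectin that binds other nectins, stood at 9.20 and 8.82 CPM in NC_2 and NC_3 and at 17.2 and 15.5 CPM in SiCIRBP_1 and SiCIRBP_3, a log2 difference of 0.86 ± 0.13 (adjusted p = 0.0117, edgeR). SiCIRBP_2, at 6.42 CPM, was below every control for this gene. CD59, an inhibitor of the membrane attack complex of complement, was higher by 0.49 ± 0.10 (adjusted p = 0.0191, edgeR) and was likewise lowest in SiCIRBP_2. LGALS1, galectin-1, was higher by 0.37 ± 0.08 (adjusted p = 0.0251, edgeR).

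NCR3LG1, the ligand of the natural killer receptor NKp30, was lower by 0.59 ± 0.12 (adjusted p = 0.0220, edgeR), and BTN2A1, a butyrophilin seen by gamma-delta T cells, by 0.51 ± 0.10 (adjusted p = 0.0220, edgeR). CD46, a complement regulator, stood at 64.6, 76.8 and 75.2 CPM in the NC libraries and at 59.6, 48.3 and 51.3 CPM in the SiCIRBP libraries, with no overlap. It was lower by 0.45 ± 0.10 (adjusted p = 0.0285, edgeR). Over all 6 libraries edgeR called 0 of the 23 ligands tested and 0 of 15217 genes. At an unadjusted p under 0.05, 6 were higher and 1 lower, where 23.7% of all genes passed in either direction. DESeq2, which called 9.78% of all genes in either direction, called 1, NT5E, which makes extracellular adenosine. CD80, CD86, VTCN1 and FGL1, ligands of CTLA4, CD28 or LAG3 or B7 relatives, were at 0 counts in every library.

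**Figure D4:**
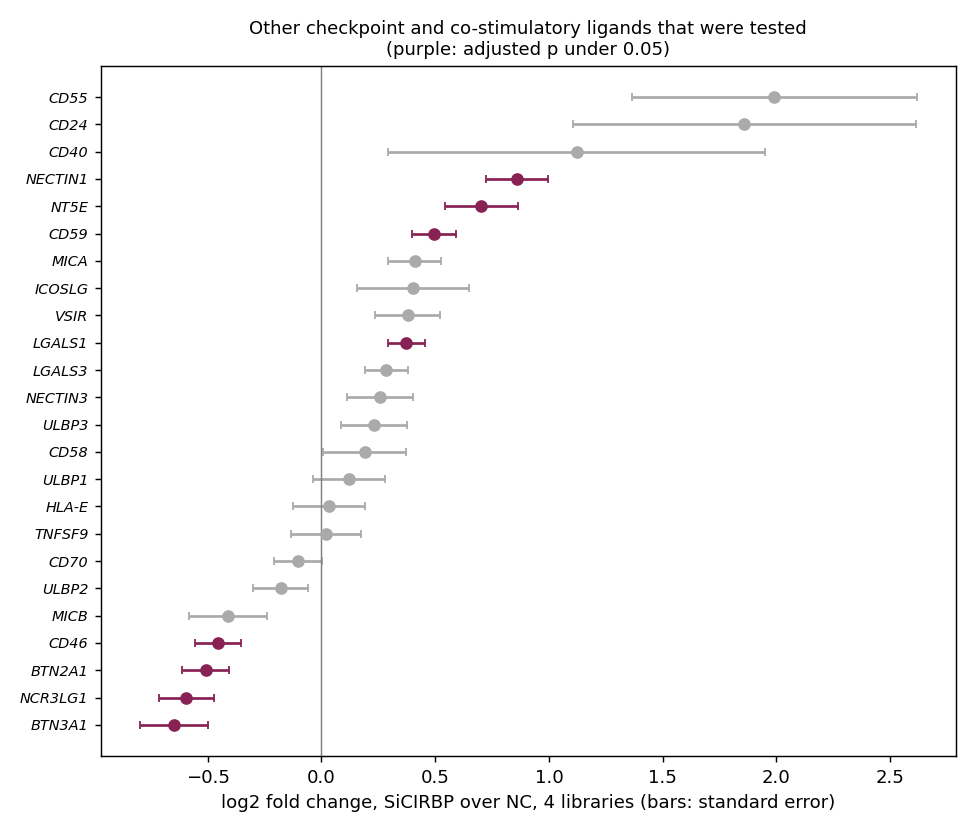
Log2 difference of SiCIRBP from NC over the 4 libraries for the 24 other checkpoint ligands tested, with bars of 1 standard error. Purple marks an adjusted p under 0.05 and grey the rest. NECTIN1 is highest among the purple genes at 0.86 and BTN3A1 lowest at -0.65.

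Of 23 binding partners listed, 6 had enough counts to be tested, and over the 4 libraries 1 was higher and 1 lower, where 9.62% and 9.76% of all genes were. CD200R1 had at most 2 counts in any library, PDCD1 at most 1, BTLA at most 3 and TIGIT 0. SIRPA, the receptor of CD47, was present, at 36.7, 32.2 and 27.5 CPM in the NC libraries and at 36.4, 32.1 and 39.9 CPM in SiCIRBP_1, SiCIRBP_2 and SiCIRBP_3. Its groups overlapped, and its log2 difference over the 4 libraries was 0.36 ± 0.12 (adjusted p = 0.0832, edgeR). CD44, an adhesion receptor that binds galectin-9, had up to 28628 counts in a library and a log2 difference of -0.23 ± 0.07 (adjusted p = 0.0712, edgeR). P4HB, a disulfide isomerase that also binds galectin-9 at the surface, was higher by 0.31 ± 0.07 over the 4 libraries (adjusted p = 0.0335, edgeR), and THBS1, thrombospondin-1, a matrix ligand of CD47, was lower by 0.70 ± 0.11 (adjusted p = 0.0114, edgeR). THBS1 stood at 303 CPM in SiCIRBP_2, within the range of the controls.

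Of 30 genes known to act on CD274 RNA or protein, 29 were tested, and over the 4 libraries 2 were higher in SiCIRBP and 8 lower, with a median log2 difference of -0.25, where 9.62% of all genes were higher and 9.76% lower around a median of -0.00. MYC, a transcription factor, stood at 192, 292 and 296 CPM in NC_1, NC_2 and NC_3 and at 171, 140 and 142 CPM in SiCIRBP_1, SiCIRBP_2 and SiCIRBP_3, with NC_1 again the lowest control. Over the 4 libraries MYC was lower by 0.91 ± 0.10 (adjusted p = 0.00614, edgeR), EGFR by 0.45 ± 0.08 (adjusted p = 0.0149, edgeR) and STAT3 by 0.43 ± 0.08 (adjusted p = 0.0163, edgeR). JUN, a subunit of AP-1, was higher by 0.55 ± 0.07 (adjusted p = 0.00779, edgeR), and HIP1R, which takes PD-L1 to the lysosome, by 0.52 ± 0.14 (adjusted p = 0.0414, edgeR). JUN was above all controls in each SiCIRBP library, at 484, 570 and 486 CPM against 330 to 331. Over all 6 libraries edgeR called 0 of the 29 and 0 of 15217 genes. At an unadjusted p under 0.05, 3 were higher and 7 lower, where 23.7% of all genes passed in either direction. DESeq2 called 2 higher and 2 lower, where it called 4.6% of all genes higher and 5.17% lower.

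The genes whose level was most like that of CD274 over the 6 libraries, high in SiCIRBP_2, NC_2 and NC_3 and low in the other 3, were UVRAG, an autophagy gene, with a Pearson correlation of 0.996, POLR3C, a subunit of RNA polymerase III, NNMT, nicotinamide N-methyltransferase, KLHL28, and IRAK2, a kinase of interleukin-1 and Toll-like receptor signalling, with 0.988. IRAK2 stood at 32.6, 58.2 and 66.1 CPM in NC_1, NC_2 and NC_3 and at 26.6, 61.8 and 27.5 CPM in SiCIRBP_1, SiCIRBP_2 and SiCIRBP_3. As for CD200, these are descriptions picked from 15217 genes.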

How the data were processed

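RNA-seq libraries of 3 NC and 3 SiCIRBP samples were grouped by their labels. The authors deposited an estimated count and a TPM value for each of 58884 genes and each library. The submitters' processing notes name fastp, HISAT, RSEM and hg38, without versions or annotation release. The authors also deposited their own comparisons, with a ratio, its log2 value and a p-value, which were not used here.

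After rounding, edgeR 4.0.16 (R 4.3.3) tested the counts (TMM scaling, filterByExpr, quasi-likelihood test), with p-values adjusted over all genes tested and calls made at an adjusted p under 0.05. The 4 libraries of the study's test were fitted first and all 6 beside them. An SE is the absolute log2 difference over the square root of F. DESeq2 1.42.0, RLE size factors, other filters on low counts, a replicate block and each library left out were alternatives. Implied lengths were tested with limma 3.58.1, and single genes by exact permutation of the group labels. Counting intervals came from scipy 1.17.1, exact Poisson for a library and exact binomial for a difference between 2 libraries. Gene locations and transcripts came from GENCODE 29 on GRCh38. The edgeR and limma fits were also run on simulated data. Those data had the same spread for all genes and no outlying library, unlike the data here.

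The 9 genes and the gene lists were chosen with earlier results of these data known. All 9 are named, as are all genes of a list that passed over the 4 libraries where at most 6 did, otherwise the 3 with the smallest p in each direction. The 5 genes most correlated with CD200 and with CD274 are also named. Others (NT5E, BTN3A1, SIRPA, CD44, undetected receptors and ligands) were named after their values were seen. Differences of the smaller counts are limited by depth: CD274 had 14 to 115 counts per library and LGALS9 11 to 127.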

Additional observations from a re-analysis of the deposited data

How the results depend on the processing

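RLE size factors and a minimum of 10 counts in every library left all counts of calls within 1.5 times those given. With all 6 libraries in place of 4, edgeR called 0 of 15217 genes. It therefore called 0 of the 3 lower ligand genes, 0 of the 8 other checkpoint ligands, 0 of the 2 binding partners and 0 of the 10 genes acting on CD274. Without the filter on low counts the 4-library fit called 13, 4 and 17 genes of the last 3 lists, and 17.4% of all genes. Leaving out each of the 4 libraries gave 0 (NC_3 out) to 5 (SiCIRBP_3 out, with CD47 and TNFRSF14 added) ligand genes lower, against 1 without NC_2, and 0 to 2 higher (SiCIRBP_1 out, CD276 and NECTIN2). The same gave 0 to 16 other ligands, 0 to 6 binding partners and 0 to 20 genes acting on CD274. These numbers moved with the share of all genes called, 1.04% without NC_2, 0.403% without NC_3, 44.3% without SiCIRBP_1 and 40.2% without SiCIRBP_3, against 19.4% with all 4, and the lone library is then assumed to vary like the other group. Over 6 libraries DESeq2 called 1 of the 8 genes and edgeR without the filter 1, LGALS9 in both, where they called 9.78% and 3.15% of all genes. The 6-library log2 difference changed sign for PDCD1LG2 (-0.90 without SiCIRBP_2 to 0.17 without SiCIRBP_1, and 0.07 without SiCIRBP_3), CD47 (-0.17 to 0.13 without SiCIRBP_1) and CD276 (-0.17 without SiCIRBP_3, -0.01 without NC_2 and -0.02 without NC_3, to 0.19). Under the replicate block CD276 was at -0.013 and CD274 at -0.97 (adjusted p = 0.370, edgeR), and 0 of the 8 genes were called. The shared numbers pair nothing that the labels describe, and deviations of same-numbered libraries from their group means correlated at -0.12, 0.01 and -0.03. The cause of these changes was not tested. With 2 libraries per group the spread rests mainly on the trend across genes, and counts under 30 limit CD274 and LGALS9.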
